A study of Mus musculus with 12 samples.

Results

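Pofut2 and 6 other genes for enzymes that attach or extend fucose were followed across kidneys labelled wild type (WT) or tubular Gpx3 knockout (CKO), after sham surgery or ischemia-reperfusion injury (IRI). The members were Pofut2, B3glct, Pofut1, Lfng, Mfng, Rfng and Fut8, 7 of the 13465 genes in the deposited table. They were found by their Ensembl mouse identifiers, and 10 of their 33 annotated transcripts had a row in the table. The set was drawn up because Pofut2 was low in 1 group of these same libraries, so the values of Pofut2 are given as a description without a test, and the other 6 genes were tested.

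The renal cortex was sampled from mice in 4 groups of 3 RNA libraries. WT sham and CKO sham had no ischemia, and WT IRI and CKO IRI had 30 min of bilateral renal ischemia followed by 48 h of reperfusion. By their labels, CKO kidneys carry a deletion of Gpx3, the gene of a secreted glutathione peroxidase, confined by design to the tubular epithelium, so other renal cells keep the gene. The driver of the deletion, the strain, the age and the sex of the mice were not given in the sources used here. The labels do not tie libraries to animals, so the spread among the 3 libraries of a group may be technical. Each p-value rests on that spread pooled over the 4 groups, with a weight per group, and drawn toward that of genes of similar level.

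Fucose is a sugar that the secretory pathway adds to proteins from the donor GDP-fucose. POFUT2 places it on thrombospondin type 1 repeats, folded modules of many secreted matrix proteins, and B3GLCT extends it with glucose, a pair of steps linked to the folding and secretion of those proteins. POFUT1 places fucose on epidermal growth factor (EGF) repeats of Notch receptors and their ligands, where the Fringe enzymes LFNG, MFNG and RFNG extend it and alter how Notch responds to its ligands. FUT8 adds the core fucose of N-linked glycans.

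The genes lie on different chromosomes except B3glct and Lfng, which share chromosome 5 (GENCODE M21, mouse build GRCm38). Pofut2 spans chr10:77259218-77269575 on the plus strand and B3glct spans chr5:149678230-149762599 on the plus strand. Pofut1 lies at chr2:153241533-153270247 (plus), Lfng at chr5:140607320-140615545 (plus), Mfng at chr15:78755882-78773475 (minus), Rfng at chr11:120780746-120784207 (minus) and Fut8 at chr12:77238125-77476338 (plus). Gm10941 overlaps Pofut2 and 9530018F02Rik overlaps Fut8, each on the opposite strand. Neither was analysed here, and since the strand setting of the quantification is not given, reads of such a pair cannot be told apart.

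Promoter windows from RefSeq (GRCm38.p6, 250 bases before to 50 bases after a transcription start) were matched by symbol for 6 of the 7 members, all but Mfng. The windows shown are 3: those of Pofut2 and B3glct, whose products act in sequence on the same protein module, and that of Rfng, whose change after IRI held in each alternative analysis. Capitals mark a GC box (GGGCGG), a cyclic AMP response core (TGACG), an antioxidant response element (TGACNNNGC) or a hypoxia response core (ACGTG), on either strand, and neighbouring matches can overlap. Each sequence is written 5′ to 3′ on the strand of its gene.
Pofut2, chr10:77259050-77259349, plus strand: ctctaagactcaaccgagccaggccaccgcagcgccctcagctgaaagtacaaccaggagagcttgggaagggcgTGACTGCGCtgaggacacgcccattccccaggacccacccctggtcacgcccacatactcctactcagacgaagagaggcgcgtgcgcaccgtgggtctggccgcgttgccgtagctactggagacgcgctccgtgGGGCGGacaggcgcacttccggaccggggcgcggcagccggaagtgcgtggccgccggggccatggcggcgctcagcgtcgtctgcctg
B3glct, chr5:149677980-149678279, plus strand: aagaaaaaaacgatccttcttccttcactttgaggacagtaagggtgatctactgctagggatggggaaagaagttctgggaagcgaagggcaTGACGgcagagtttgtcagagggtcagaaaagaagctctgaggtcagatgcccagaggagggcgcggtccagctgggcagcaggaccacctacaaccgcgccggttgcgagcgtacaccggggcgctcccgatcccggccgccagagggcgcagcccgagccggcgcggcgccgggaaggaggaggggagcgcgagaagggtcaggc
Rfng, chr11:120784155-120784454, minus strand: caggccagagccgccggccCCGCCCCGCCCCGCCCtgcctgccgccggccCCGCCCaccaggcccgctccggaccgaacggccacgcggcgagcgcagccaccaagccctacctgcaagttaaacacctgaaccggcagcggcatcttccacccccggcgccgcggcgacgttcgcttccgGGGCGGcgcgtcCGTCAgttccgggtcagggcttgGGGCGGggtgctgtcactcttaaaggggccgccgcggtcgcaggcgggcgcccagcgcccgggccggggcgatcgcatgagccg
These windows were GC-rich, at 68.7% for Pofut2, 62.7% for B3glct and 77.0% for Rfng, against a median of 52.7% over the 32851 windows in the table. The Pofut2 window held 1 GC box and 1 antioxidant response element, the latter present in 12.4% of all windows. The Rfng window held 6 GC boxes, a motif found in 35.7% of all windows, and 1 cyclic AMP response core, found in 20.8%. The B3glct window shared with it only that last motif among those marked. ACGTG, found in 19.6% of all windows, occurred in none of the 3 windows shown and 2 times in that of Lfng, where the matches are the 2 strands of 1 clock-factor E-box (CACGTG, in 7.15% of windows). A CCAAT box was found in 37.4% of all windows and, among the members, in those of Lfng and Fut8. A match is a description of these letters and not of a bound site.

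Levels are read as FPKM, fragments per kilobase of transcript scaled to library size, which allows a rough comparison between genes. Comparison between libraries depends on that scaling, and other scalings shifted the changes after IRI, as given at the end. The 12 libraries summed to 391002 FPKM at the lowest and 422328 FPKM at the highest, and how many reads each held is not known. Gpx3 was at 5664, 4476 and 5371 FPKM in WT sham and at 2501, 3037 and 3299 FPKM in CKO sham, without overlap. On the log2(FPKM + 1) scale this difference was -0.81 (SE 0.21) and was not called (adjusted p = 0.135 by limma). Gpx3 was at 2788, 3568 and 1075 FPKM in the libraries labelled WT IRI and at 3723, 3025 and 2779 FPKM in those labelled CKO IRI. The genotype labels after IRI were thus not told apart by Gpx3, and genotype directions there refer to libraries as labelled. All 8 proximal tubule markers were in the table, and their summed level was 3521 to 4649 FPKM in the sham libraries and 1277 to 2794 FPKM after IRI. Of 6 cartilage and joint lining markers, listed because the extraction text speaks of joint capsule, only Comp was in the table, at 0.16 to 1.63 FPKM. In whole tissue, fewer cells of a type and less RNA per cell cannot be told apart.

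Pofut2 was highest after IRI in the libraries labelled WT and lowest after IRI in those labelled CKO. It stood at 19.8, 20.5 and 20.4 FPKM in WT sham and at 23.3, 21.9 and 21.4 FPKM in CKO sham. The libraries WT IRI 13, 24 and 49 held 26.9, 30.7 and 30.2 FPKM, and CKO IRI 7, 15 and 29 held 8.75, 9.09 and 9.96 FPKM. No 2 groups overlapped, and the largest gap lay between CKO IRI and all others. In sham, group means were 20.2 ± 0.40 FPKM (SD, n = 3) for WT and 22.2 ± 1.01 for CKO. After IRI they were 29.3 ± 2.05 for WT and 9.27 ± 0.63 for CKO. The CKO IRI mean was thus 0.316 times that of WT IRI and 0.417 times that of CKO sham, while the WT IRI mean was 1.45 times that of WT sham. Replicates were close, with a coefficient of variation between 2.0% and 7.0% in the 4 groups.

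**Figure D1:**
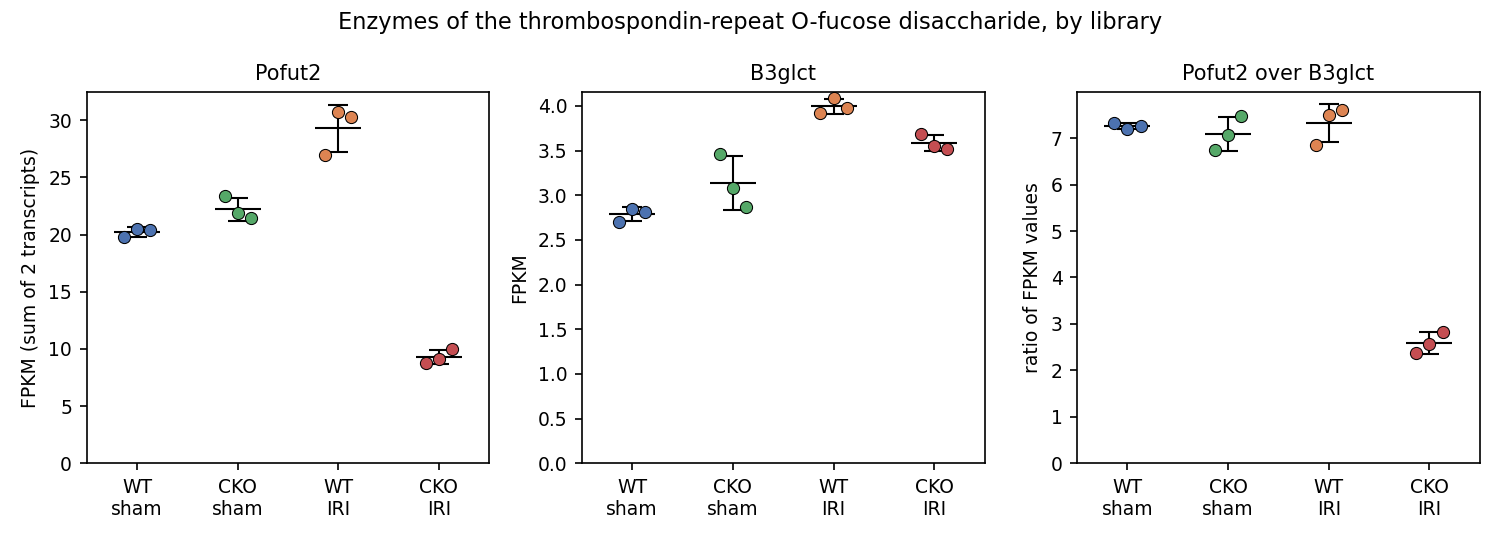
Levels of Pofut2 (left, sum of 2 transcripts, FPKM) and B3glct (middle, FPKM) and their ratio (right) by group; each point is a library and bars give the mean and SD of 3 libraries. Pofut2 stands at 8.75 to 9.96 FPKM in CKO IRI and at 19.8 FPKM or more elsewhere, while B3glct lies at 3.51 to 3.69 FPKM there, inside its range over the other groups.

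On the log2(FPKM + 1) scale the fitted difference of Pofut2 after IRI was 0.51 in WT (standard error, SE, 0.10, 95% interval 0.29 to 0.73) and -1.18 in CKO (SE 0.10, -1.39 to -0.96). Between genotypes it was 0.13 in sham (SE 0.07) and -1.56 after IRI in libraries labelled CKO against those labelled WT (SE 0.12, -1.83 to -1.29). The difference between the IRI effects of the 2 genotypes was -1.69 (SE 0.14, -1.996 to -1.38). These estimates describe the pattern for which the gene was chosen and support nothing beyond it. Over all alternative settings the difference after IRI between genotypes ranged from -1.65 to -1.50 and the change in WT from 0.35 (trimmed-mean scaling) to 0.57. The difference in sham ranged from 0.06, with every library scaled to the same sum, to 0.15.

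Almost all of the Pofut2 signal came from the full-length transcript. Pofut2-201, with 9 exons and 2290 bases of which 1287 are coding, ranged from 18.7 to 19.4 FPKM for WT and from 20.6 to 22.4 FPKM for CKO in sham. After IRI it ranged from 25.8 to 29.3 FPKM for WT and from 8.01 to 9.63 FPKM for CKO, and no groups overlapped. Pofut2-204, a 2-exon transcript of 558 bases at chr10:77266917-77267564, stayed between 0.33 and 2.13 FPKM in all 12 libraries. Of its bases 301 lie inside exons of Pofut2-201, so the split between them is an estimate. It made up 2.54% to 6.93% of the gene in 10 libraries, 8.50% in CKO IRI 7 and 10.3% in CKO IRI 15. Its CKO IRI values of 0.74, 0.93 and 0.33 FPKM overlapped those of WT IRI, at 1.14, 2.13 and 0.91 FPKM.

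B3glct, the glucosyltransferase that extends the fucose placed by POFUT2, rose after IRI in WT and did not show the low level of Pofut2 in CKO IRI. Its single deposited transcript, of 15 exons and 4570 bases, stood at 2.70, 2.85 and 2.81 FPKM in WT sham and at 3.46, 3.09 and 2.87 FPKM in CKO sham. It stood at 3.93, 4.09 and 3.98 FPKM in WT IRI and at 3.69, 3.55 and 3.51 FPKM in CKO IRI. The IRI groups did not overlap, and each lay above its sham group. In WT the fitted change was 0.40 (SE 0.12, adjusted p = 0.0228 by limma), and in CKO it was 0.15 (SE 0.11, adjusted p = 0.464). Between the genotypes it differed by -0.12 after IRI (SE 0.14, 95% interval -0.44 to 0.19, adjusted p = 0.740). The WT call was lost without WT IRI 24 (adjusted p = 0.146) or WT IRI 49 (0.0603), with only the groups compared in the fit (0.0683), and under trimmed-mean scaling (change 0.27, 0.0892) or quantile normalization (0.19, 0.221).

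The ratio of Pofut2 to B3glct was nearly constant in 3 groups. Sham libraries had ratios of 7.19 to 7.33 (WT) and 6.74 to 7.47 (CKO), and WT IRI libraries had 6.86 to 7.60. Those of CKO IRI were 2.37, 2.56 and 2.84. The group means were 7.26 ± 0.07, 7.10 ± 0.37, 7.32 ± 0.40 and 2.59 ± 0.23 (SD, n = 3) in that order. Against Pofut1, the corresponding enzyme for EGF repeats, the ratio was 2.28 to 2.40 in CKO IRI and 4.50 to 7.35 in the other 9 libraries. These ratios contain Pofut2 and are a description like its level.

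Proteins with thrombospondin type 1 repeats, the module on which this enzyme pair acts, were present as 23 of 42 listed genes. Whether each is a substrate of the pair was not checked. Of the 23, 18 passed the filter of at least 1 FPKM in at least 3 libraries. After IRI in WT, 7 of the 18 rose and 4 fell, where 23.5% of the 12469 tested genes rose and 11.8% fell, and the median change was 0.40 against 0.12 over all tested genes. After IRI in CKO, 2 rose and 2 fell, where 6.6% of all genes rose and 2.02% fell, with a median of 0.19 against 0.08. Adamts2, which rose in WT, reached the filter level in IRI libraries only, and Adamts8 and Unc5c, which fell in WT, in sham libraries only, so they had to differ and these counts support nothing about the list. Summed fibroblast markers were 30.7 to 61.1 FPKM in sham and 96.7 to 342 FPKM in WT IRI, and summed neutrophil markers 0.81 to 3.78 FPKM and 10.02 to 22.1 FPKM, and their part in these changes was not tested. Properdin (Cfp), an activator of complement, was at 2.94 to 3.84 FPKM in WT sham and 12.7 to 29.4 FPKM in WT IRI, a rise of 2.13 (SE 0.26, adjusted p = 0.000302). Adamtsl4, which encodes a matrix protein of the ADAMTS-like family, rose from 0.87 to 0.91 FPKM in WT sham to 3.13 to 8.33 FPKM in WT IRI (1.72, adjusted p = 0.000557). It reached the filter level in 2 sham and 6 IRI libraries, so it passed the filter only through IRI. Its calls in WT and CKO are thus no support for a rise. The secreted protease gene Adamts8 was at 1.499 to 3.04 FPKM in the 6 sham libraries and at most 0.42 FPKM in the 6 IRI libraries. C8a, a complement component of the membrane attack complex, fell by 2.60 in WT (adjusted p = 0.00202) and by 2.00 in CKO (adjusted p = 0.0208). The protease gene Adamts1 rose by 1.03 in CKO (adjusted p = 0.0289) and Adamtsl4 by 0.89 there (adjusted p = 0.038).

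The CKO calls of these last 3 genes were lost in 5 of 22 alternatives for Adamts1, 10 of 21 for Adamtsl4 and 5 of 22 for C8a. When sham library 2 or 3 or IRI library 7 or 29 of CKO was left out, the adjusted p was 0.0731 to 0.13 for Adamts1, 0.0973 to 0.208 for Adamtsl4 and 0.0762 to 0.155 for C8a. No gene of the list was called between genotypes. The smallest p in sham was that of the netrin receptor gene Unc5c, which reached 1 FPKM in WT sham only, at 1.35, 1.47 and 1.22 FPKM, against 0.44, 0.52 and 0.76 FPKM in CKO sham (adjusted p = 0.0686). Unc5c thus passed the filter only through WT sham, and its p is no support for a genotype difference. After IRI the smallest p was that of Cfp, at 12.7 to 29.4 FPKM in libraries labelled WT and 6.32 to 9.76 FPKM in those labelled CKO (-1.11, adjusted p = 0.346). In the interaction it was also that of Cfp (-1.52, adjusted p = 0.191).

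Counted over the 6 members tested, 3 were called after IRI in WT (B3glct higher, Rfng and Fut8 lower), where 35.4% of all tested genes were called. None was called after IRI in CKO (8.62% of all genes), in CKO against WT sham (0.136%), in CKO against WT after IRI (0.016%) or in the genotype by IRI interaction (0.016%). At an unadjusted p under 0.05 from the same limma fit, the counts were 4 in WT, 1 in CKO, 2 in sham, 0 after IRI between genotypes and 1 in the interaction. Over all 12469 tested genes, the counts at that level were 5690, 3061, 2214, 1573 and 2204 in the same order. The 2 genes behind each share of 0.016% were Tmem67 and Pofut2 itself, named after their values were seen. Pofut2 stayed in the fit of all genes, but it was chosen for these values, so its part in the shares supports nothing. Without WT IRI 24, only 1 member (Rfng) was called after IRI in WT, where the count over all genes fell from 4408 to 1840. Without CKO IRI 15, 2 members (Lfng and Mfng) were called after IRI in CKO, where the count over all genes rose from 1075 to 1416.

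**Figure D2:**
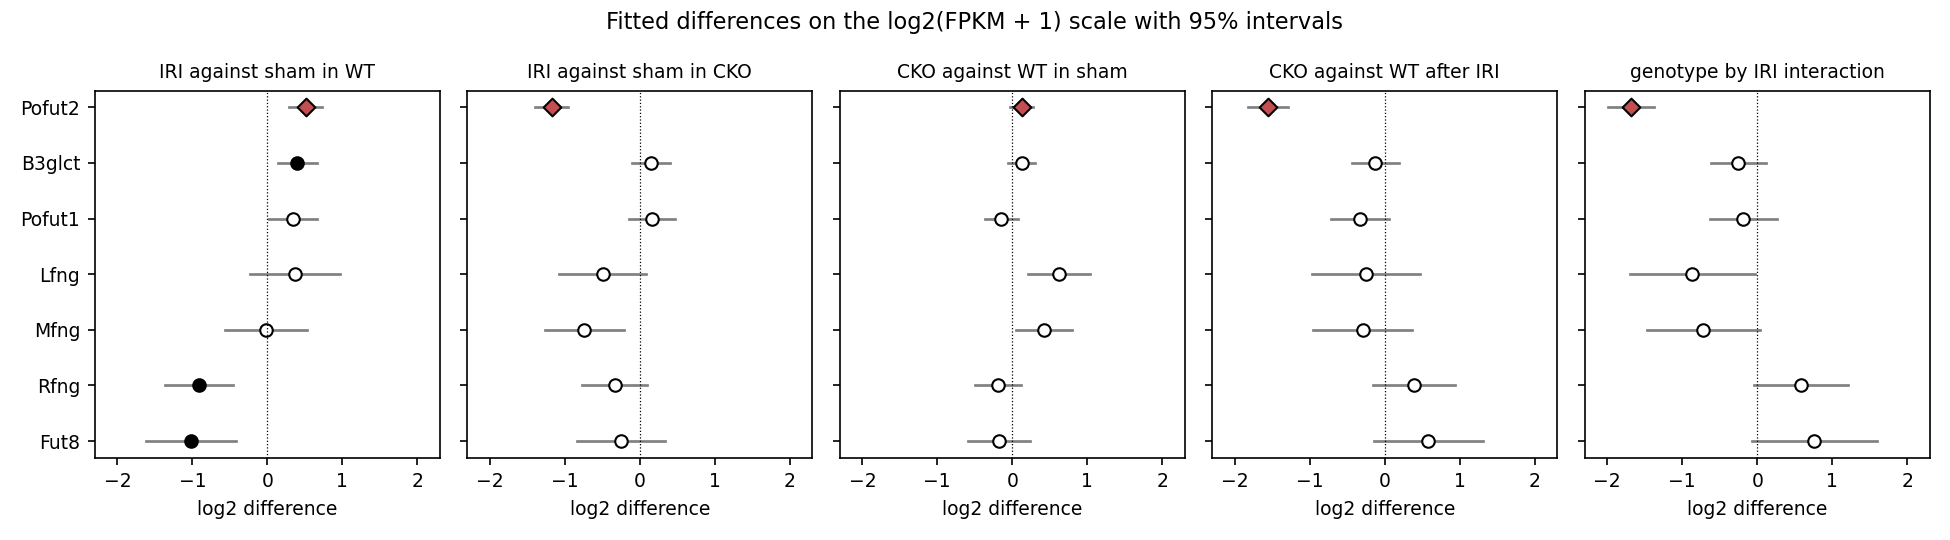
Fitted differences on the log2(FPKM + 1) scale for the 7 genes in the 5 comparisons, with 95% intervals. Filled circles passed an adjusted p under 0.05, open circles did not, and diamonds mark Pofut2, for which no test is reported. Of the 6 tested genes, B3glct lies to the right and Rfng and Fut8 lie to the left of 0 as filled circles in the first panel, and all circles in the other 4 panels are open.

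Pofut1, which starts O-fucose on Notch, was at 3.51, 4.28 and 3.86 FPKM in WT sham and at 3.17, 3.33 and 3.73 FPKM in CKO sham. It was at 5.99, 4.77 and 4.92 FPKM in WT IRI and at 3.68, 3.78 and 4.38 FPKM in CKO IRI. The WT IRI libraries lay above all other libraries of this gene. The fitted change after IRI in WT was 0.35 (SE 0.15, 95% interval 0.03 to 0.67) and did not pass the threshold (adjusted p = 0.0851). It did pass without WT sham 2 (0.41, adjusted p = 0.048). In libraries labelled CKO against those labelled WT after IRI it was -0.33 (SE 0.18, -0.72 to 0.06, adjusted p = 0.456), and in sham it was -0.15 (adjusted p = 0.464).

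Rfng was the most abundant Fringe gene, and it fell after IRI in WT. It was at 21.04, 18.9 and 19.2 FPKM in WT sham and at 6.56, 10.4 and 14.4 FPKM in WT IRI, without overlap. In CKO it was at 13.8, 18.5 and 19.6 FPKM in sham and at 13.3, 13.3 and 13.5 FPKM after IRI. The change was -0.91 in WT (SE 0.20, adjusted p = 0.00654), and this call held in all 22 alternative settings, with values from -1.16 to -0.64. In CKO the change was -0.34 (SE 0.20, adjusted p = 0.333), although its groups did not overlap. The 2 IRI effects differed by 0.58 (SE 0.28, 95% interval -0.05 to 1.20, adjusted p = 0.310). The coefficient of variation was 37.7% in WT IRI and 0.9% in CKO IRI.

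Lfng was higher in CKO sham than in WT sham in each library, without passing the threshold. It was at 2.88, 2.89 and 2.86 FPKM in WT sham and at 6.01, 4.24 and 4.73 FPKM in CKO sham. The difference was 0.62 (SE 0.19, 95% interval 0.21 to 1.03, adjusted p = 0.160). After IRI the replicates spread widely, at 5.68, 2.47 and 4.41 FPKM in WT and at 2.03, 5.69 and 2.72 FPKM in CKO. The change was 0.37 in WT (adjusted p = 0.315) and -0.49 in CKO (adjusted p = 0.276). The latter was -0.83 without CKO IRI 15, the high library (adjusted p = 0.0435).

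Mfng, the third Fringe gene, had the same order of sham groups as Lfng. It was at 3.04, 2.03 and 2.84 FPKM in WT sham and at 4.60, 3.64 and 3.37 FPKM in CKO sham, a difference of 0.42 (SE 0.17, 95% interval 0.05 to 0.80, adjusted p = 0.235). After IRI it was at 3.16, 1.83 and 2.84 FPKM in WT and at 1.69, 2.87 and 1.36 FPKM in CKO. The CKO IRI libraries lay below all CKO sham libraries, with a change of -0.74 (SE 0.24, adjusted p = 0.0802) that passed without CKO IRI 15 (-0.94, adjusted p = 0.0393). In WT the change was -0.02 (95% interval -0.56 to 0.52, adjusted p = 0.960).

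Summed over the 3 Fringe genes, the level was 23.8 to 27.7 FPKM in the 6 sham libraries and 14.7 to 21.8 FPKM in the 6 IRI libraries. Rfng made up 77.1% to 79.4% of that sum in WT sham and 56.6% to 70.8% in CKO sham. After IRI its share was 42.6% to 70.7% in WT and 60.8% to 78.2% in CKO, so the IRI groups overlapped and the sham groups did not.

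**Figure D3:**
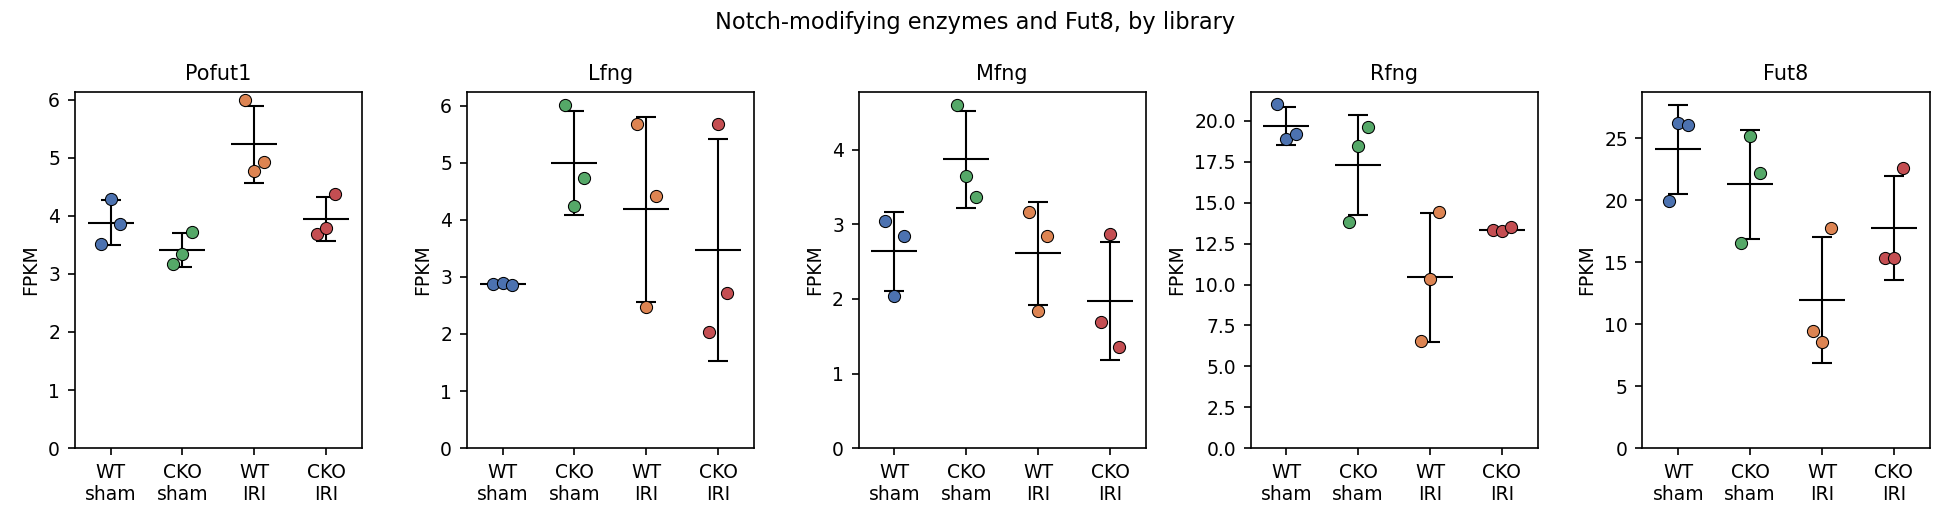
Levels (FPKM) of the Notch-modifying enzymes Pofut1, Lfng, Mfng and Rfng and of Fut8 by group; each point is a library and bars give the mean and SD of 3 libraries. In WT IRI, Rfng (6.56 to 14.4 FPKM) and Fut8 (8.60 to 17.8 FPKM) lie below WT sham, and Pofut1 (4.77 to 5.99 FPKM) lies above it.

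The Notch pathway was read from 8 tested genes of receptors and ligands. After IRI in WT 3 rose, the receptor gene Notch3 (0.48, adjusted p = 0.0422) and the ligand genes Jag1 (0.53, adjusted p = 0.0446) and Jag2 (0.68, adjusted p = 0.0462), where 23.5% of all genes rose, with a list median of 0.37 against 0.12 over all genes. These calls were lost without any one of WT IRI 13, 24 or 49, with adjusted p from 0.0633 to 0.167 for Notch3, 0.0787 to 0.172 for Jag1 and 0.062 to 0.182 for Jag2. Counting all alternatives, 12 of 21 lost the call of Notch3, 11 of 22 that of Jag1 and 9 of 21 that of Jag2. After IRI in CKO 2 fell, where 2.02% of all genes fell, with a list median of 0.01 against 0.08. The ligand gene Dll4, known from endothelium, was at 5.39, 4.58 and 4.67 FPKM in CKO sham and at 1.49, 3.20 and 1.71 FPKM in CKO IRI (-0.94, adjusted p = 0.01, 0.103 without CKO IRI 7 and 0.0601 with only the groups compared). Notch4, an endothelial receptor gene, was at 5.83, 2.80 and 3.94 FPKM in CKO sham and at 1.25, 1.94 and 1.22 FPKM in CKO IRI (-1.04), and passed only just, with an adjusted p that rounds to 0.05. That call was lost in 13 of 21 alternatives, among them each of the 6 that left out a CKO library (adjusted p 0.0503 to 0.269). The summed level of 5 endothelial markers was 89.7 to 128 FPKM in CKO sham and 28.8 to 67.5 FPKM in CKO IRI. It was also lower after IRI in WT, at 77.6 to 81.2 FPKM in sham and 32.2 to 57.4 FPKM after IRI. In WT neither Dll4 (-0.34, adjusted p = 0.183) nor Notch4 (0.40, adjusted p = 0.324) was called. The part of the endothelial markers in the changes of Dll4 and Notch4 was not tested.

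Between genotypes no receptor or ligand gene was called. The smallest p was that of Dll4 in sham, at 2.91 to 3.37 FPKM in WT and 4.58 to 5.39 FPKM in CKO (0.49, adjusted p = 0.135), and that of Notch4 after IRI (-1.12, adjusted p = 0.346) and in the interaction (-1.44, adjusted p = 0.191). Of 6 Notch target genes 3 were tested, and Heyl alone was called (23.5% of all genes rose), rising after IRI in WT from 1.25 to 1.499 FPKM to 2.07 to 3.48 FPKM (0.58, adjusted p = 0.0223). Its call was lost without WT IRI 24 (0.0737) or WT IRI 49 (0.122), with only the groups compared (0.0587) and under quantile normalization (0.35, adjusted p = 0.113). Nrarp had the smallest p among the targets in sham, at 3.15 to 3.36 FPKM in WT and 3.71 to 4.39 FPKM in CKO (0.22, adjusted p = 0.282). Medians of the targets were 0.25 in WT and -0.02 in CKO after IRI.

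Other enzymes that add glucose, xylose or N-acetylglucosamine to EGF repeats were tested as 7 genes, with medians of 0.25 after IRI in WT and 0.22 in CKO. The xylosyltransferase gene Gxylt1 rose in WT (0.47, adjusted p = 0.0297). Its call was lost without WT IRI 13 (0.132) or WT IRI 24 (0.131), with only the groups compared (0.0874), and under trimmed-mean scaling (0.34, adjusted p = 0.101) or quantile normalization (0.25, adjusted p = 0.239). Gxylt2, also called higher in WT, was at 0.34 to 0.53 FPKM in WT sham and 1.10 to 3.19 FPKM in WT IRI, and reached the filter level in IRI libraries only, so it had to differ. These 2 of 7 genes stand where 23.5% of all genes rose, and none of the 7 was called in the other comparisons. Xxylt1, which adds the next xylose, had the smallest p in CKO after IRI (0.32, adjusted p = 0.373), in sham (-0.33, adjusted p = 0.268) and in the interaction (0.68, adjusted p = 0.259).

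Fut8, the only enzyme of core fucose, fell after IRI in WT. Its 3 deposited transcripts summed to 20.0, 26.3 and 26.1 FPKM in WT sham and to 9.47, 8.60 and 17.8 FPKM in WT IRI, without overlap. In CKO the sums were 16.5, 25.2 and 22.2 FPKM in sham and 15.3, 15.4 and 22.6 FPKM after IRI, with overlap. The change was -1.01 in WT (SE 0.27, 95% interval -1.61 to -0.41, adjusted p = 0.0156) and -0.25 in CKO (SE 0.26, -0.83 to 0.33, adjusted p = 0.604). The WT call was lost without WT IRI 13 (-0.89, adjusted p = 0.0607) or WT IRI 24 (-0.83, adjusted p = 0.151). The 2 effects differed by 0.76 (SE 0.38, -0.08 to 1.60, adjusted p = 0.314), and after IRI the genotypes differed by 0.58 (SE 0.33, adjusted p = 0.479).

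The split of Fut8 between its transcripts varied more between libraries than the gene did. Fut8-201, Fut8-202 and Fut8-203 share all coding exons, 1725 coding bases in all, and differ outside them. Fut8-202 was the main transcript in 8 libraries, at 10.5 to 16.7 FPKM, and was at 9.68 FPKM in CKO sham 2. It was listed at 0 in WT IRI 13, WT IRI 24 and CKO IRI 15, and there Fut8-201, at 9.42, 8.60 and 15.2 FPKM, made up 98.8% to 100% of the gene. In the other 9 libraries Fut8-201 was at 0.75 to 5.30 FPKM. Fut8-203 was at 1.15, 5.67 and 6.0 FPKM in WT sham, was listed at 0 in CKO sham 1 and WT IRI 24, and reached at most 1.38 FPKM after IRI. The share of Fut8-201, on a log2 ratio to the rest of the gene, differed by 3.57 over the mean of both IRI effects (SE 1.36, adjusted p = 0.294), where 0.748% of 18580 transcripts were called. A transcript listed at 0 can be a failed estimate, since 6211 transcripts, 2 of Gapdh among them, were at 0 in some library.

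**Figure D4:**
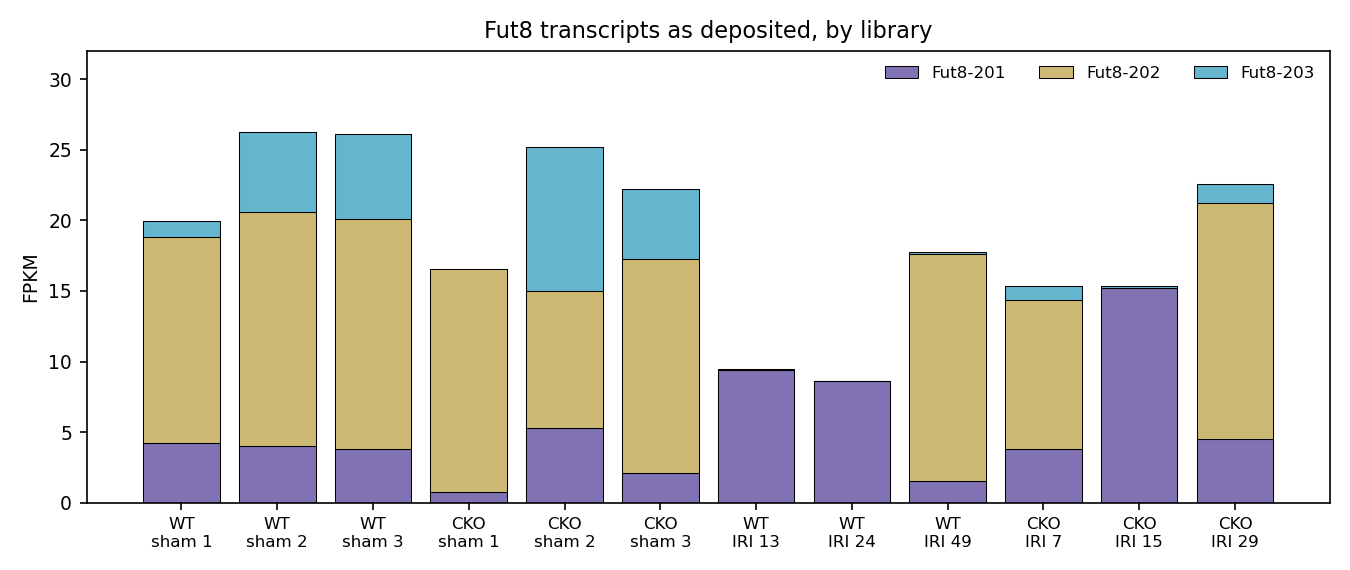
Deposited FPKM of the 3 Fut8 transcripts in each of the 12 libraries, stacked to the gene sum. Fut8-202 is absent from the bars of WT IRI 13, WT IRI 24 and CKO IRI 15, where Fut8-201 holds 98.8% to 100% of the sum.

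Of 6 genes that build the branches of N-glycans, 1 rose and 3 fell after IRI in WT, where 23.5% of all genes rose and 11.8% fell, with a median of -0.46 against 0.12 over all genes. None was called in CKO, where the median was 0.20 against 0.08. Mgat3, whose product adds the bisecting N-acetylglucosamine, was at 32.1 to 34.6 FPKM in WT sham and 7.24 to 15.3 FPKM in WT IRI (-1.65, SE 0.25, adjusted p = 0.00097). Mgat2 (-0.86, adjusted p = 0.016) and Mgat5 (-0.63, adjusted p = 0.00692) also fell, and Mgat4b rose (0.73, adjusted p = 0.00551). Without WT IRI 24 these 3 calls were lost (adjusted p 0.0899, 0.0727 and 0.0777), and that of Mgat2 also without WT IRI 13 (0.0634). In CKO the change of Mgat3 was -0.80 (adjusted p = 0.0646). Between genotypes the smallest p was that of Mgat5 in sham, at 7.03 to 7.64 FPKM in WT and 4.58 to 5.87 FPKM in CKO (-0.40, adjusted p = 0.130), of Mgat4b after IRI (-0.42, adjusted p = 0.402) and of Mgat2 in the interaction (1.02, adjusted p = 0.193).

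The donor GDP-fucose was covered by 6 tested genes, with medians of 0.00 after IRI in WT and 0.08 in CKO. After IRI 1 of them rose in WT and 2 in CKO, where 23.5% and 6.6% of all genes rose. Gmds, which encodes the first enzyme of its synthesis from GDP-mannose, rose in both genotypes. It was at 8.54 to 10.7 FPKM in the 6 sham libraries, at 18.5 to 28.4 FPKM in WT IRI and at 12.98 to 18.7 FPKM in CKO IRI. The rise was 1.07 in WT (SE 0.18, adjusted p = 0.00155) and 0.70 in CKO (SE 0.17, adjusted p = 0.0309), the latter lost without sham library 2 or 3 or IRI library 7 or 29 of CKO (0.0942 to 0.194) or with only the groups compared (0.0639). Slc35c1, the Golgi transporter of GDP-fucose, rose in CKO from 7.29 to 8.52 FPKM to 10.8 to 12.9 FPKM (0.46, adjusted p = 0.0464), a call lost in 14 of 22 alternatives, among them the omission of sham library 2 or 3 or any IRI library of CKO (0.0539 to 0.192). Between genotypes none was called. The smallest p was that of Tsta3, the next enzyme of synthesis, in sham (-0.18, adjusted p = 0.234), and of Gmds after IRI (-0.43, adjusted p = 0.429) and in the interaction (-0.36, adjusted p = 0.447).

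Of 8 other fucosyltransferase genes 5 were in the table and 3 were tested. Fut9, an enzyme of Lewis-type antigens, was at 27.6 to 38.2 FPKM in the 6 sham libraries and fell to 6.51, 12.9 and 16.3 FPKM in WT IRI (-1.45, adjusted p = 0.00123) and to 15.7, 16.3 and 18.8 FPKM in CKO IRI (-0.94, adjusted p = 0.0274). The CKO call was lost without sham library 2 or 3 or IRI library 7 or 15 of CKO (0.0535 to 0.197) and with 1 shared spread (0.052). In each genotype Fut9 was the 1 gene of 3 called lower, where 11.8% of all genes fell in WT and 2.02% in CKO. Fut2, which makes the H antigen of secretory epithelia, was at 0.02 FPKM in each WT sham library and at 3.24, 2.76 and 0.48 FPKM in WT IRI. It was listed at 0 in all CKO sham libraries and was at 0.66, 0.18 and 1.90 FPKM in CKO IRI. It reached the filter level in IRI libraries only, so it had to differ and its call after IRI in WT is no support for a rise. In the genotype comparisons none was called, with the smallest p for Fut11 in sham (0.24, adjusted p = 0.434) and Fut9 after IRI (0.55, adjusted p = 0.436) and in the interaction (0.51, adjusted p = 0.412). Medians of the 3 were 0.42 in WT and 0.13 in CKO after IRI.

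Both fucosidase genes, whose products remove fucose, fell after IRI in WT, where 11.8% of all genes fell. The lysosomal Fuca1 was at 80.3 to 83.8 FPKM in WT sham and 42.0 to 68.6 FPKM in WT IRI (-0.61, adjusted p = 0.0111). Fuca2 was at 70.2 to 74.9 FPKM and 31.9 to 48.7 FPKM (-0.89, adjusted p = 0.00161). The call of Fuca1 was lost without WT IRI 13 (0.0531) or WT IRI 24 (0.0823). In CKO neither was called, with a median of -0.27 and a change of Fuca2 of -0.29 (adjusted p = 0.256). Fuca2 differed by 0.54 after IRI between genotypes (adjusted p = 0.347), by -0.06 in sham (adjusted p = 0.782) and by 0.61 in the interaction (adjusted p = 0.206).

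Among the 7 members, no other gene followed the levels of Pofut2 closely over the 12 libraries, which share 4 groups. Pearson correlations of log2(FPKM + 1) with Pofut2 were 0.45 for Mfng, 0.33 for Pofut1, 0.25 for Lfng, 0.05 for B3glct, -0.09 for Rfng and -0.21 for Fut8. Over all tested genes the 5 highest were Mfsd4b4 (0.862), Acvr2b (0.842), Zmym6 (0.838), Plekhn1 (0.832) and Hdac11 (0.825). Hdac11, a histone deacetylase gene, was at 22.5 to 25.3 FPKM in sham, 17.5 to 22.6 FPKM in WT IRI and 9.89 to 12.1 FPKM in CKO IRI. Acvr2b, a receptor gene for activins, was at 0.70 to 1.24 FPKM in sham, 1.29 to 2.36 FPKM in WT IRI and 0.14 to 0.74 FPKM in CKO IRI. These genes were picked by likeness from 12469, so their correlations are a description.

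The 10 nearest genes of the table around Pofut2, 5 on each side, were compared with it because they share its stretch of chromosome 10, a choice made after the values of Pofut2 were known. The mean in CKO IRI was 0.316 times that in WT IRI for Pofut2 and between 0.619 (Itgb2) and 1.28 (Slc19a1) times for the 10 neighbours. Col18a1, the next gene upstream, was at 96.4 to 133 FPKM in WT IRI and 65.9 to 108 FPKM in CKO IRI. Fam207a, downstream, was at 19.8 to 30.7 FPKM in WT IRI and 19.2 to 22.5 FPKM in CKO IRI. The IRI groups of Col18a1 and Fam207a overlapped. Pofut2 was chosen for the gap between its groups, so its difference from these neighbours was given in advance and supports nothing.

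**Figure D5:**
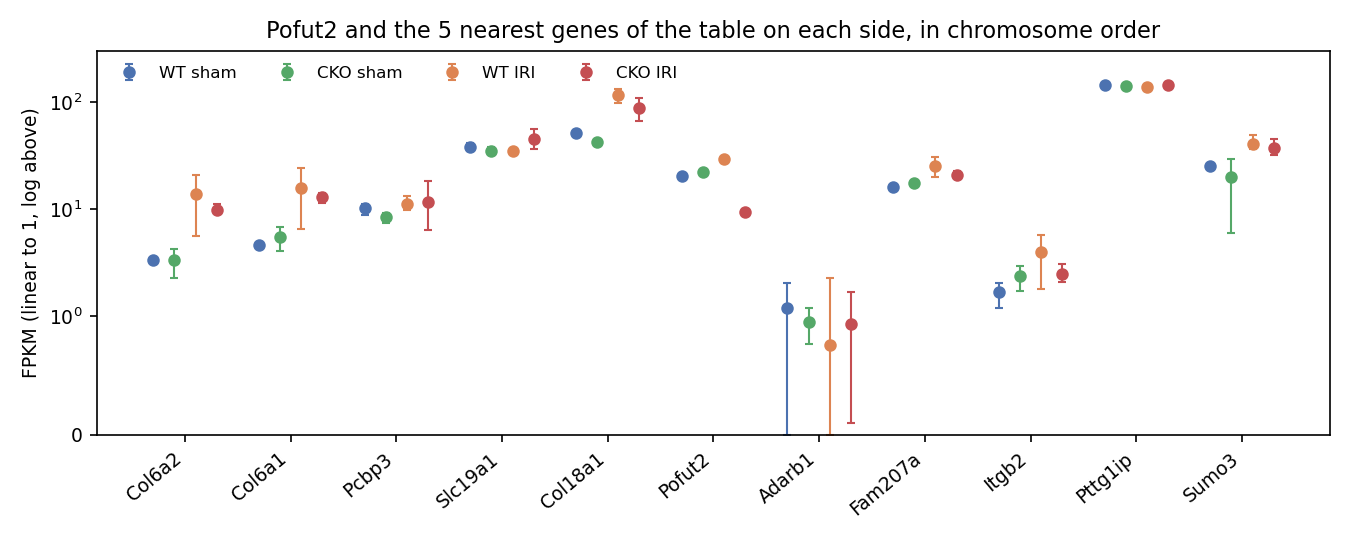
Mean FPKM by group (points) and range of 3 libraries (lines) for Pofut2 and its 5 nearest genes of the table on each side in chromosome order; the axis is linear up to 1 and logarithmic above. Pofut2 stands at 9.27 FPKM in CKO IRI against 29.3 FPKM in WT IRI, while the ratio of these means is 0.619 to 1.28 for the 10 neighbours.

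Marker sums of several cell types also moved with IRI, although not every marker of a list was called. The summed proximal tubule markers were 1277 to 2764 FPKM in WT IRI and 1782 to 2794 FPKM in CKO IRI. Fibroblast markers, all 5 in the table, summed to 30.7 to 61.1 FPKM in sham. After IRI they summed to 96.7 to 342 FPKM in WT and to 140 to 201 FPKM in CKO. Of the 5, Col1a1, Col1a2 and Col3a1 were called higher in each genotype, where 23.5% of all genes rose in WT and 6.6% in CKO. Macrophage and monocyte markers, 7 of 8 in the table without Ptprc, summed to 82.2 to 93.8 FPKM in WT sham and 103 to 148 FPKM in CKO sham. Their sums were 96.1 to 236 FPKM in WT IRI and 116 to 184 FPKM in CKO IRI. Of these 7 markers, only Cd68 and Lyz2 were called after IRI in WT, both higher, and none was called in CKO. Neutrophil markers, 3 of 4 in the table without Ly6g, summed to 0.81 to 3.78 FPKM in sham, 10.02 to 22.1 FPKM in WT IRI and 8.40 to 20.4 FPKM in CKO IRI. The 4 podocyte markers summed to 85.3 to 111 FPKM in sham, 39.5 to 69.1 FPKM in WT IRI and 55.9 to 84.6 FPKM in CKO IRI. Markers of the loop and distal tubule, all 5 in the table, summed to 1541 to 2007 FPKM in sham, 1338 to 1915 FPKM in WT IRI and 1074 to 2475 FPKM in CKO IRI. That sum hides opposite changes after IRI in WT, where Aqp2 was called higher and Calb1 and Slc12a3 lower (list median -0.53). Of all tested genes 23.5% rose and 11.8% fell there. For each of these lists the ranges of WT IRI and CKO IRI overlapped. In sham, the macrophage and monocyte sums of WT and CKO did not overlap. Nor did the endothelial sums, at 77.6 to 81.2 FPKM in WT and 89.7 to 128 FPKM in CKO. The sham ranges of the other lists named here overlapped. No marker was called between genotypes in sham, where 0.136% of all tested genes were. The part of these markers in the levels of Pofut2 and in the changes of Rfng, Fut8 and B3glct after IRI was not tested. Neither was their part in the sham differences of Lfng, Mfng and Dll4.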

How the data were processed

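Total RNA of renal cortex was sequenced from 12 libraries in 4 groups of 3, grouped by the labels' genotype and treatment. The authors deposited 1 table of 25790 mouse transcripts, read here as FPKM. Its header does not name the unit, and TPM would differ by 1 factor per library. Cutadapt, HISAT2 2.1.0 and StringTie were used and GRCh38 is named, per the submitters' processing notes, although the identifiers are mouse. No source used here names the annotation release. In each deposited row the mean FPKM of at least 1 group was 0.5 or more, so lower transcripts were not analysed here. Depth is unknown, so no counting interval is given.

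Of these rows 25740 matched GENCODE M21 by identifier without version, and 50 did not and were dropped. Sums per gene gave 13465 genes, of which the 12469 with at least 1 FPKM in at least 3 libraries were tested. The test was limma 3.58.1 (R 4.3.3) on log2(FPKM + 1), with a mean and a weight for each group and a mean-variance trend, after checks on simulated data. Differences on that scale understate changes of low genes. Calls needed a Benjamini-Hochberg adjusted p under 0.05 over all tested genes in each of 5 two-sided contrasts. Transcript shares were fitted as log2 ratios to the rest of the gene with an offset of 0.5. The members and gene lists were chosen with earlier results of these data known. Named genes were all members, in each list and contrast up to 4 called genes of smallest p (otherwise the 1 of smallest p), and the 5 most like Pofut2. Alternatives were other pseudocounts, filters, scalings and weights, a fit of only the groups compared, and the omission of each library.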

Additional observations from a re-analysis of the deposited data

Results flagged for a closer look

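Pofut2 differed between the genotypes in its change after IRI, by -1.69 on the log2(FPKM + 1) scale. It was flagged because all 3 CKO IRI libraries lay below all 3 CKO sham libraries, at most 9.96 against at least 21.4 FPKM, whereas all 3 WT IRI libraries lay above all 3 WT sham libraries, at least 26.9 against at most 20.5 FPKM. The gene was chosen for this pattern, so no test of the difference is reported. Gpx3 did not separate the genotype labels in the same IRI libraries.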

How the results depend on the processing

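Over 30 pairs of a tested member and a comparison, 645 alternative values were computed: 629 kept their direction and side of the threshold, 7 lost a call, 6 gained one and 3 reversed. The reversals were those of Mfng after IRI in WT, at 0.06 without WT sham 1, 0.03 without WT sham 3 and 0.15 without WT IRI 24, where leaving out 1 library gave -0.145 to 0.146 in all. Over 28 called pairs of a list gene and a comparison, 494 of 601 values kept the call, 107 lost it and 0 reversed. With 1 weight per library, 3 members (Lfng, Mfng and Rfng, all lower) were called after IRI in CKO, and 3551 genes were called there, 124 in CKO against WT sham, 723 in CKO against WT after IRI and 841 in the interaction. With only the groups compared in the fit these counts were 528 after IRI in CKO, 8 in sham and 0 between genotypes after IRI. The sham count was 17 as reported, 33 without a filter, 26 with every library scaled to the same sum and 0 with 1 shared spread. The count between genotypes after IRI was 2 as reported, 1 with a filter of 5 FPKM and 5 with 1 shared spread, and the interaction count was 1 with the filter of 5 FPKM. With the replicate number as a block in the sham groups 0 genes and 0 members were called. Same-numbered sham libraries did not deviate together over all tested genes (correlations 0.004, -0.031 and -0.002). A shared effect that is small or limited to few genes could go unseen in these values. The labels name no pairing, and the IRI groups share no replicate number.

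Leaving out 1 library gave 1840 to 4344 called genes after IRI in WT, 252 to 1672 in CKO, 0 to 88 in sham, 2 to 49 between genotypes after IRI and 1 to 39 in the interaction. For the members these ranges were 1 to 4 after IRI in WT, 0 to 2 in CKO and 0 to 0 in the other 3 comparisons and for transcript shares. Trimmed-mean scaling moved the median change of all genes after IRI in WT from 0.12 to -0.01 and the split from 2936 higher and 1472 lower to 2101 and 2125, and quantile normalization gave -0.03 with 2088 and 2011. In CKO the split was 823 higher and 252 lower as reported, 666 and 353 with trimmed-mean scaling and 625 and 390 with quantile normalization. The cause of these shifts was not tested.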
